A study of Danio rerio with 15 samples.

Results

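A set of 48 zebrafish genes was examined that were close to silent in wildtype embryos until 4 hours post fertilization (hpf) and clearly present at 4.5 hpf. The genes were chosen by their levels in the 6 wildtype libraries alone. A gene belonged to the set when both wildtype libraries gave less than 1 FPKM at 3 hpf, less than 2 FPKM at 4 hpf and at least 5 FPKM at 4.5 hpf. FPKM counts sequenced fragments in relation to transcript length and library size. Comparisons of levels between libraries still depend on the scaling, and results under other scalings are given below. Of the 23726 genes in the deposited table, 48 met the rule.

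Polyadenylated RNA of dechorionated whole embryos was measured in 15 libraries. At each of 3 stages (3, 4 and 4.5 hpf) there was 1 library of MZnup133 embryos (genotype given as nup133 knockout), 1 of Melys embryos (genotype given as elys knockout), 1 of Tgnup133 embryos (genotype given as transgenic overexpression of nup133) and 2 of wildtype embryos. One wildtype library per stage was named as the control of MZnup133 and Tgnup133 and the other as the control of Melys, and these are referred to as nup133-set and elys-set wildtype. No allele, transgene promoter, strain or clutch is given in the labels, and no genotype other than wildtype had a second library at a stage. Each p-value below therefore rests on the spread between pairs of wildtype libraries or between lines. The former may be technical, and the latter also holds differences between the genotypes.

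In the early fish embryo, RNA deposited by the mother directs the first cell divisions, and the embryo's own genes are switched on around the mid-blastula stage, a step called zygotic genome activation. The first lineages to part from the deep cells are the enveloping layer, a thin surface epithelium rich in keratins, and the yolk syncytial layer, which borders the yolk, signals to the cells above it and exports yolk lipid. Endoderm, the source of gut and liver, is specified next to this layer by a cascade of Nodal signals and GATA and Sox transcription factors. Nup133 and Elys (gene name ahctf1) are scaffold proteins of the nuclear pore, the channel through which transcription regulators enter the nucleus.

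The nup133 transcript itself stood at 0.431, 0 and 0.208 FPKM in the MZnup133 libraries at 3, 4 and 4.5 hpf, at 16.4 to 18.4 FPKM in the Tgnup133 libraries and at 9.35 to 13.1 FPKM in the wildtype libraries. The ahctf1 transcript gave no such check of the Melys label, with 13.5, 25.8 and 24.1 FPKM in Melys at 3, 4 and 4.5 hpf, against 18.7, 26.8 and 19.5 FPKM in elys-set wildtype. Relative sequencing depth, read from the steps between the lowest FPKM values, was 0.934 for MZnup133, 1.58 for Melys and 1.46 for Tgnup133 at 4.5 hpf, against 0.884 and 1.28 for nup133-set and elys-set wildtype, where nup133-set wildtype at 3 hpf is 1. By this estimate the MZnup133 and Melys libraries at 4.5 hpf were no shallower than their own wildtype controls, but MZnup133 was shallower than Tgnup133. The estimate rests on few genes. At 4.5 hpf 5.70% of the low genes compared lay at the most common ratio in nup133-set wildtype, and 4.04% in Tgnup133. The part of depth in values of 0 was not tested. Mitochondrially encoded transcripts took 5.63% of summed FPKM in MZnup133, 5.31% in Melys and 8.79% in Tgnup133 at 4.5 hpf, against 10.2% and 8.58% in wildtype; the part of this difference in the results below was not tested. In these bulk samples, fewer cells of a type and less RNA per cell cannot be told apart.

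At 4.5 hpf most of the 48 genes were near 0 in MZnup133 embryos, low in Melys embryos and above the wildtype level in Tgnup133 embryos. Below 1 FPKM were 34 genes in MZnup133 and 24 in Melys. The median level of the set was 0.202 FPKM in MZnup133, 1.01 FPKM in Melys and 16.3 FPKM in Tgnup133, against 10.2 and 7.71 FPKM in nup133-set and elys-set wildtype. In MZnup133, 23 of the 48 genes were listed at exactly 0 and 3 reached 5 FPKM. In Melys, 4 genes were at 0 and 4 reached 5 FPKM. In Tgnup133, 2 genes were at 0 and 43 reached 5 FPKM. The rule put all 48 genes at 5 FPKM or more in wildtype, and no share over all genes is given for these counts.

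At 4 hpf the set was already higher in Tgnup133 than the rule allows in wildtype. The median was 0 FPKM in MZnup133, 0 FPKM in Melys and 2.61 FPKM in Tgnup133, against 1.11 and 0.787 FPKM in wildtype. In Tgnup133, 30 of the 48 genes had at least 2 FPKM at 4 hpf. In the same library 39 lay above both wildtype libraries, where 31.3% of all genes tested did, but the rule kept those wildtype values below 2 FPKM, which limits the comparison. In MZnup133 and Melys, 2 genes each reached 2 FPKM. No share over all genes is given for the counts at 2 FPKM. At 3 hpf the median was 0 FPKM in every library. At that stage 36 of the 48 genes were at 0 in MZnup133, 34 in Melys, 31 in Tgnup133 and 35 and 33 in the wildtype libraries.

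**Figure D1:**
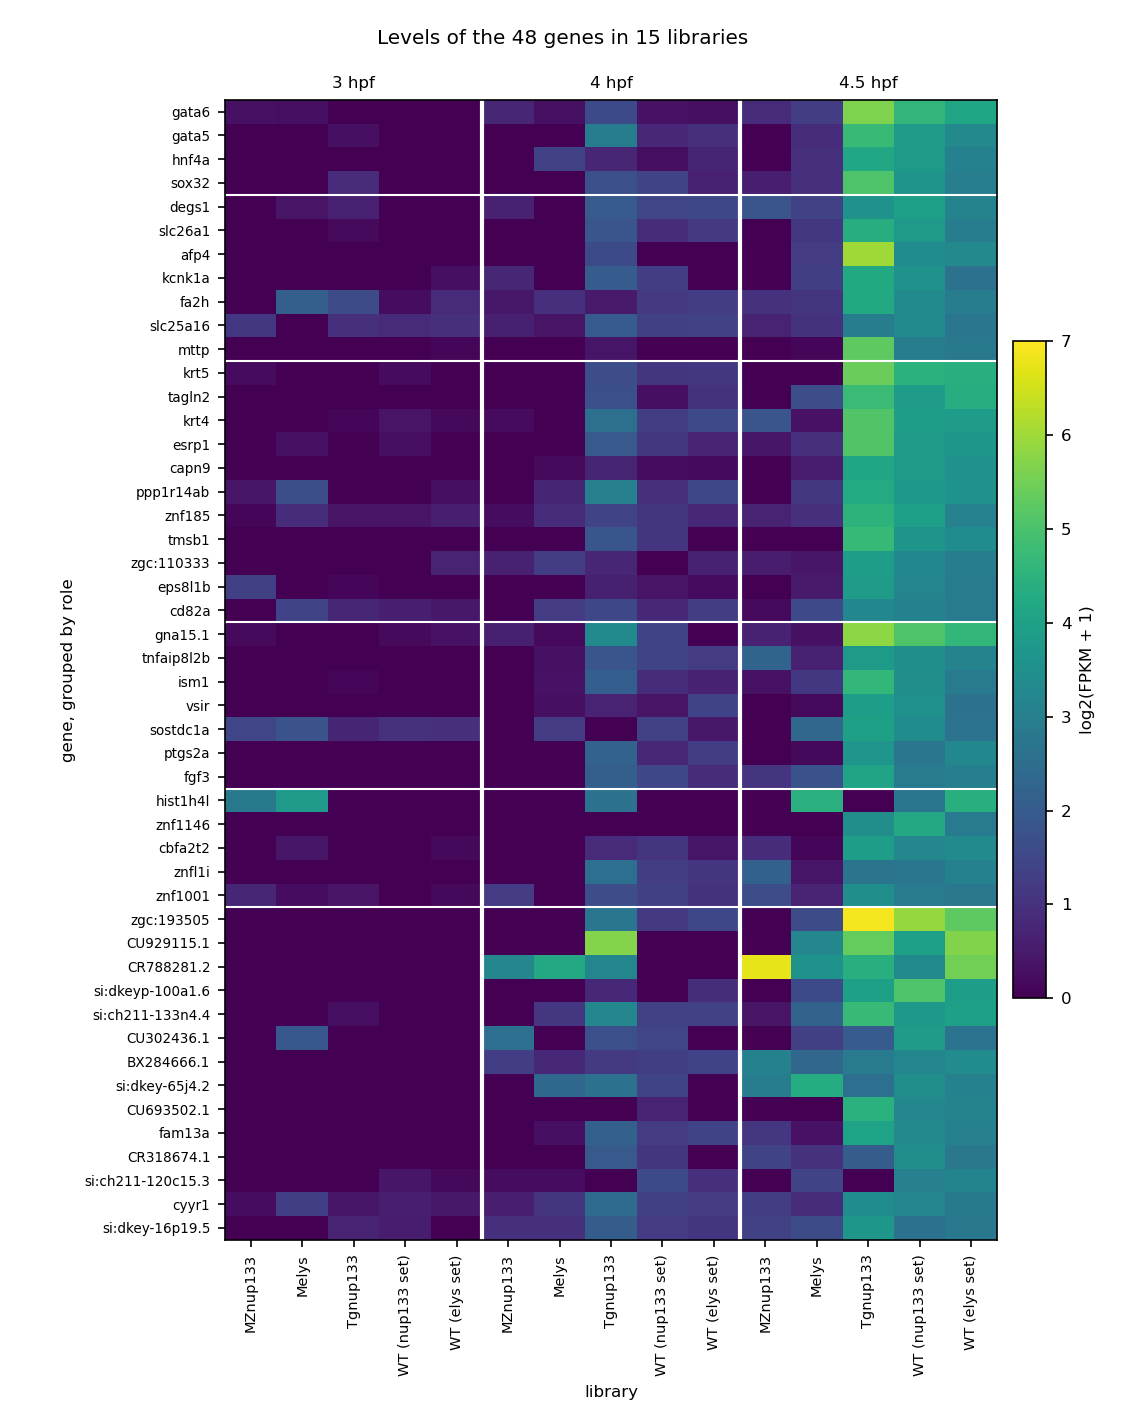
Levels of the 48 genes (rows, grouped by role) in the 15 libraries (columns, by stage), as log2(FPKM + 1) in colour. At 4.5 hpf the MZnup133 and Melys columns stay dark for most genes, with 23 and 4 genes listed at 0, while the Tgnup133 column is the brightest, with a median of 16.3 FPKM.

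Regulators of endoderm and of the yolk syncytial layer come first by role. The gene gata6 (ENSDARG00000103589), a GATA zinc-finger transcription factor that acts upstream of endoderm formation, had 0.807 FPKM in MZnup133, 1.40 FPKM in Melys and 49.4 FPKM in Tgnup133 at 4.5 hpf, against 23.6 and 16.2 FPKM in wildtype. At 4 hpf the same gene had 0.682, 0.233 and 1.98 FPKM in those lines, against 0.267 and 0.205 FPKM in wildtype. Its close relative gata5 (ENSDARG00000017821) had 0 FPKM in MZnup133, 0.840 FPKM in Melys and 26.0 FPKM in Tgnup133 at 4.5 hpf, against 13.6 and 8.74 FPKM in wildtype. Both GATA genes thus showed no overlap between the depleted lines and the other 3 libraries at 4.5 hpf, with Tgnup133 highest. The rule held wildtype at 5 FPKM or more at that stage, so part of this gap was set by the choice of genes. At 4 hpf gata5 was at 0 in MZnup133 and Melys and at 6.65 FPKM in Tgnup133, against 0.704 and 0.924 FPKM in wildtype, so the Tgnup133 library was well ahead of both controls at that stage.

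The gene sox32 (ENSDARG00000100591), the Sox factor that commits cells to endoderm in zebrafish, had 0.514 FPKM in MZnup133, 0.916 FPKM in Melys and 32.4 FPKM in Tgnup133 at 4.5 hpf, against 11.2 and 7.0 FPKM in wildtype. The nuclear receptor gene hnf4a (ENSDARG00000021494), a regulator of lipid and lipoprotein genes in liver and intestine, had 0 FPKM in MZnup133, 0.954 FPKM in Melys and 17.3 FPKM in Tgnup133, against 12.6 and 7.38 FPKM in wildtype. In Melys hnf4a was higher at 4 hpf, with 1.55 FPKM, than at 4.5 hpf, one of 5 genes of the set with that order there. The 4 regulators kept the same order of lines at 4.5 hpf, with MZnup133 lowest, then Melys, the wildtype libraries and Tgnup133.

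**Figure D2:**
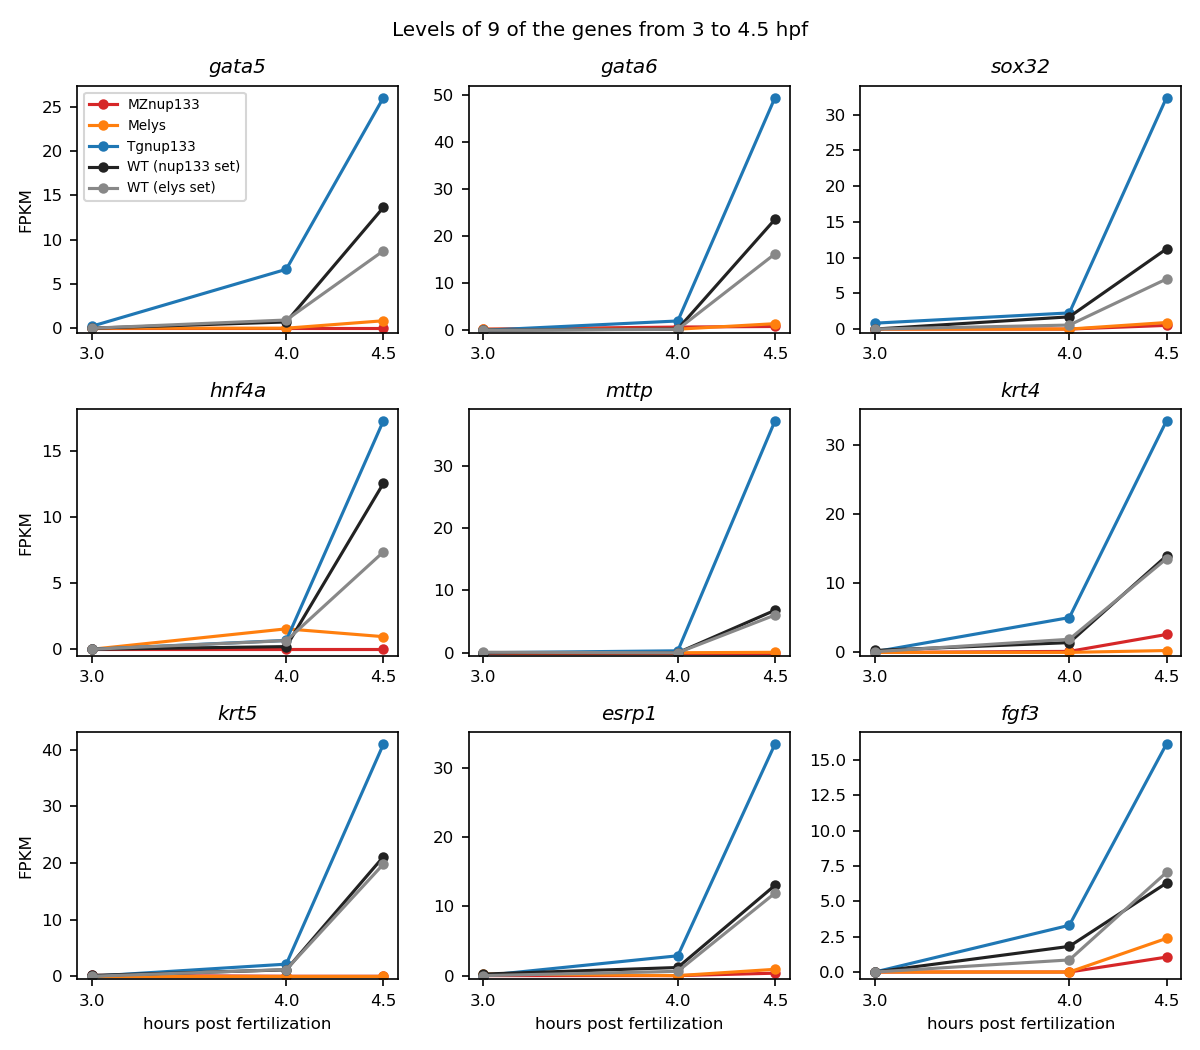
FPKM of 9 of the genes at 3, 4 and 4.5 hpf, with 1 library per point and 1 line per genotype and control set. In each panel the Tgnup133 value at 4.5 hpf is the highest, from 16.1 FPKM (fgf3) to 49.4 FPKM (gata6), and the MZnup133 and Melys values lie at or below 2.60 FPKM. Not all of the set did so: at 4.5 hpf Tgnup133 lay above both wildtype libraries for 35 of the 48 genes and below both for 7. No share over all genes is given for these counts.

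Genes of lipid and ion handling showed the same picture. The gene mttp (ENSDARG00000008637) encodes the transfer protein that loads lipid onto apolipoprotein B, a step by which the yolk syncytial layer exports yolk lipid. It had 0 FPKM in MZnup133, 0.0692 FPKM in Melys and 37.2 FPKM in Tgnup133 at 4.5 hpf, against 6.82 and 6.05 FPKM in wildtype. The 2 wildtype libraries lay close together and the Tgnup133 value was several times theirs. The gene afp4 (ENSDARG00000095863), named after the type IV antifreeze proteins, had 0 FPKM in MZnup133, 1.33 FPKM in Melys and 63.7 FPKM in Tgnup133, against 9.57 and 8.89 FPKM in wildtype. These were the genes furthest above wildtype in Tgnup133. The sulfate anion transporter gene slc26a1 (ENSDARG00000029832) had 0 FPKM in MZnup133, 1.21 FPKM in Melys and 19.5 FPKM in Tgnup133, against 12.7 and 6.83 FPKM in wildtype. The other members of this group are fa2h (fatty acid hydroxylase), degs1 (sphingolipid desaturase), slc25a16 (mitochondrial carrier) and kcnk1a (potassium channel). Their levels were 0 to 2.61 FPKM in MZnup133, 1.03 to 1.55 FPKM in Melys and 6.69 to 18 FPKM in Tgnup133, against 5.19 to 14.4 FPKM in wildtype. Among them slc25a16 and degs1 were below the nup133-set wildtype in Tgnup133, with 6.69 FPKM against 9.08 FPKM and 11.1 FPKM against 14.4 FPKM.

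The largest group with a known role, 11 genes, builds epithelia and the cytoskeleton. The keratin gene krt5 (ENSDARG00000058371) had 0 FPKM in MZnup133, 0 FPKM in Melys and 41.0 FPKM in Tgnup133 at 4.5 hpf, against 21.1 and 19.8 FPKM in wildtype. The keratin gene krt4 (ENSDARG00000017624), a surface-layer marker, had 2.60 FPKM in MZnup133, 0.271 FPKM in Melys and 33.5 FPKM in Tgnup133, against 14.0 and 13.6 FPKM in wildtype. Both keratins were about as high in one wildtype library as in the other. The gene esrp1 (ENSDARG00000011245), a splicing regulator of epithelial cells, had 0.353 FPKM in MZnup133, 0.913 FPKM in Melys and 33.5 FPKM in Tgnup133, against 13.1 and 11.9 FPKM in wildtype. The transgelin gene tagln2, whose product binds actin, had 0 FPKM in MZnup133, 2.13 FPKM in Melys and 26.5 FPKM in Tgnup133, against 13.3 and 19.7 FPKM in wildtype. For krt5, krt4, esrp1 and tagln2 alike, the MZnup133 and Melys values lay far below the lowest of the other 3 libraries. Here too the rule held wildtype at 5 FPKM or more. The remaining genes of this group were capn9 (a calpain protease), znf185 and eps8l1b (actin regulators), tmsb1 (a thymosin beta, which binds actin monomers), ppp1r14ab (a myosin phosphatase inhibitor), cd82a (a tetraspanin) and zgc:110333 (named as the claudin cldn8.2 in the reference gene table). They had 0 to 0.582 FPKM in MZnup133, 0 to 1.94 FPKM in Melys and 8.67 to 24.8 FPKM in Tgnup133, against 6.22 to 14.5 FPKM in wildtype.

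The signalling genes were 7 in number. The fibroblast growth factor gene fgf3 (ENSDARG00000101540) had 1.06 FPKM in MZnup133, 2.38 FPKM in Melys and 16.1 FPKM in Tgnup133 at 4.5 hpf, against 6.29 and 7.05 FPKM in wildtype. The G protein subunit gene gna15.1 (ENSDARG00000016364) had 0.549 FPKM in MZnup133, 0.245 FPKM in Melys and 55.0 FPKM in Tgnup133, against 32.7 and 23.8 FPKM in wildtype. At 4 hpf gna15.1 was at 9.25 FPKM in Tgnup133, against 1.64 and 0 FPKM in wildtype. Both genes stood above wildtype in Tgnup133 at both stages. The secreted regulators sostdc1a and ism1, the cyclooxygenase gene ptgs2a, which makes prostaglandins, the immune receptor gene vsir and tnfaip8l2b had 0 to 3.78 FPKM in MZnup133, 0.114 to 3.95 FPKM in Melys and 11.6 to 23.8 FPKM in Tgnup133, against 5.10 to 10.4 FPKM in wildtype. The highest MZnup133 value of these was that of tnfaip8l2b and the highest Melys value that of sostdc1a.

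The nuclear genes outside the endoderm cascade were less uniform. The co-repressor gene cbfa2t2 had 0.846 FPKM in MZnup133, 0.0935 FPKM in Melys and 14.2 FPKM in Tgnup133 at 4.5 hpf, against 8.53 and 9.23 FPKM in wildtype. The zinc finger gene znf1146 was at 0 in every library of 3 and 4 hpf and, at 4.5 hpf, at 0 in MZnup133 and Melys and at 10.1 FPKM in Tgnup133, against 17.8 and 6.42 FPKM in wildtype. The histone gene hist1h4l was at 0 in MZnup133, at 20.8 FPKM in Melys and at 0 in Tgnup133, against 5.74 and 20.4 FPKM in wildtype. The last gene therefore did not follow the others, and it had 6.07 and 12.9 FPKM in MZnup133 and Melys at 3 hpf, where wildtype was at 0. Histone H4 copies are nearly identical, and most histone messages lack a poly(A) tail, so its FPKM is uncertain. The zinc finger genes znf1001 and znfl1i had 2.13 and 3.51 FPKM in MZnup133, 0.580 and 0.317 FPKM in Melys and 10.2 and 5.47 FPKM in Tgnup133, and each was between 5.73 and 7.38 FPKM in both wildtype libraries.

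A further 14 genes had no role that could be stated with confidence. The highest was zgc:193505 (ENSDARG00000093584), with 0 FPKM in MZnup133, 2.06 FPKM in Melys and 118 FPKM in Tgnup133 at 4.5 hpf, against 58.9 and 37.5 FPKM in wildtype. It was the most abundant of the 48 genes in the wildtype library of the nup133 set. The gene CR788281.2 went the other way, with 106 FPKM in MZnup133, 10.9 FPKM in Melys and 20.4 FPKM in Tgnup133, against 9.17 and 44.7 FPKM in wildtype. The gene CU929115.1 had 0 FPKM in MZnup133, 8.5 FPKM in Melys and 39.5 FPKM in Tgnup133, against 14.4 and 49.8 FPKM in wildtype. For CR788281.2 and CU929115.1 the wildtype libraries themselves lay more than 2-fold apart, as they did for 8 of the 48 genes. The gene CU693502.1, with 0 FPKM in MZnup133, 0 FPKM in Melys and 21.2 FPKM in Tgnup133 against 8.45 and 7.79 FPKM in wildtype, matched the same RefSeq gene (GRCz12tu) as cbfa2t2, so these may be the same locus counted under 2 names. The gene BX284666.1 had 7.41 FPKM in MZnup133, 3.95 FPKM in Melys and 6.20 FPKM in Tgnup133, against 8.30 and 9.30 FPKM in wildtype. The gene si:dkey-65j4.2, a long noncoding RNA in the RefSeq table, had 6.61 FPKM in MZnup133, 19.2 FPKM in Melys and 4.93 FPKM in Tgnup133, against 10.1 and 7.39 FPKM in wildtype. With CR788281.2, these were the 3 genes of the set with at least 5 FPKM in MZnup133. The other genes without a stated role are cyyr1, fam13a, si:ch211-133n4.4, si:dkey-16p19.5, si:dkeyp-100a1.6, CU302436.1, CR318674.1 and si:ch211-120c15.3. They had 0 to 1.63 FPKM in MZnup133, 0.275 to 3.73 FPKM in Melys and 0 to 25.4 FPKM in Tgnup133, against 5.24 to 32.5 FPKM in wildtype, and si:ch211-120c15.3 was the one at 0 in Tgnup133.

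The contrast of MZnup133 with Tgnup133 compares loss with excess of the same pore protein within the same control set, in libraries that the choice of genes did not read. At 4.5 hpf the MZnup133 value was below the Tgnup133 value for 43 of the 48 genes, where it was for 35.2% of the 13493 genes tested. The median difference in log2(FPKM + 1) was -3.86 for the set and 0.37 for all genes tested. The most negative differences were those of zgc:193505 (-6.90), afp4 (-6.02), krt5 (-5.39), CU929115.1 (-5.34) and mttp (-5.26). By role, the median difference was -4.61 for the endoderm and yolk layer regulators, -4.12 for the epithelial and cytoskeletal genes, -3.88 for the signalling genes, -4.24 for the lipid and ion genes, -1.84 for the other nuclear genes and -2.25 for the genes without a stated role. The 3 genes with a positive difference were CR788281.2 with 2.32 and, turning negative under median-ratio scaling, BX284666.1 with 0.22 (-0.20) and si:dkey-65j4.2 with 0.36 (-0.06), while hist1h4l and si:ch211-120c15.3 were at 0 in both lines.

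Each line gave 1 library here, and the spread used by the limma test, with 2 residual degrees of freedom, came from pairs of wildtype libraries that the rule had held low at 3 and 4 hpf. The p-values of these 48 genes are therefore not independent of how the genes were chosen, and the counts are given as a description. At a limma adjusted p below 0.05, 39 of the 48 genes were lower in MZnup133 and 0 were higher, where 7.97% of all genes tested were lower and 17.7% higher. At an unadjusted p below 0.05, 41 were lower and 0 higher, where 13.1% and 31.1% of all genes were. Without either wildtype library of 4 hpf, 0 genes were lower at the adjusted threshold, in the set and over all genes tested. With no minimum level 25 of the set were. An additive fit of the 9 libraries other than wildtype reads none of the values behind the rule. That fit compares the lines over all 3 stages together, so its count is not for the same contrast. In it 3 of the set were lower at the adjusted threshold (cd82a, si:ch211-133n4.4 and si:dkey-16p19.5), where 758 of the 13493 genes tested were.

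**Figure D3:**
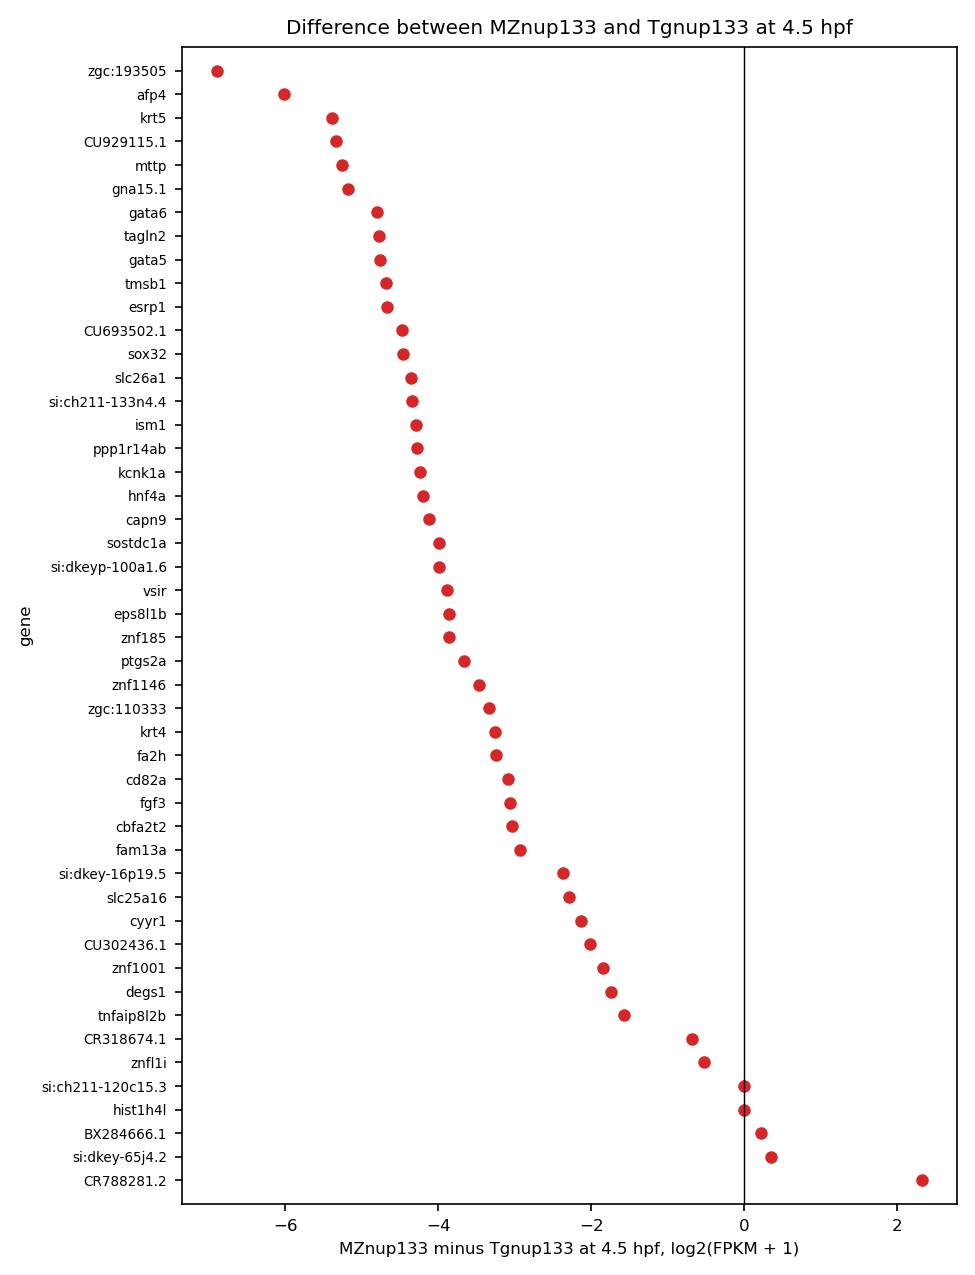
Difference of MZnup133 minus Tgnup133 at 4.5 hpf for each of the 48 genes, in log2(FPKM + 1), from 1 library per line. Of the 48 points, 43 are left of 0, down to -6.90 (zgc:193505), and the point furthest to the right is CR788281.2 at 2.32.

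Against the matched wildtype library of the same stage the differences are a description, because the rule read the wildtype values. At 4.5 hpf 44 of the 48 genes were lower by at least 1 in log2(FPKM + 1) in MZnup133, where 10.4% of all genes tested were. In Melys 45 were lower, where 8.96% of all genes were. In Tgnup133 13 were higher and 5 lower, where 4.62% and 6.91% of all genes were. The median difference was -3.16 in MZnup133, -2.24 in Melys and 0.65 in Tgnup133. As a share of the matched wildtype level, the median gene stood at 1.73% in MZnup133, 12.7% in Melys and 164% in Tgnup133. The Melys value was above the MZnup133 value for 31 of the 48 genes (45.8% of all genes tested), but these lines belong to different control sets and no difference between them was tested. Nup133-set wildtype was itself above elys-set wildtype for 36 of the 48 genes (42.1% of all genes tested).

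The same comparison was made for genes that met the rule in the opposite pair of controls, so that the matched wildtype library was not read by the choice. Of 121 genes chosen in the elys set, 87 (71.9%) were lower in MZnup133 by at least 1, with a median difference of -2.09. Of 159 genes chosen in the nup133 set, 97 (61%) were lower in Melys, with a median of -1.37. Of the 121 genes, 30 were higher and 15 lower in Tgnup133, with a median of 0.38. All medians were nearer to 0 than those of the 48 genes and had the same sign. The 48 genes met the rule in both sets, so they are among the 121 and among the 159, and these medians are not separate from theirs.

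Genes already on by 4 hpf, 170 genes that both wildtype libraries gave less than 1 FPKM at 3 hpf and no less than 5 FPKM at 4 hpf, served as a yardstick, and 169 of them were tested. At 4.5 hpf their median level was 9.38 FPKM in MZnup133, 8.88 FPKM in Melys and 28.9 FPKM in Tgnup133, against 26.9 and 26.0 FPKM in wildtype. Of the 169, 109 were lower by at least 1 in MZnup133 and 117 in Melys, with a median of -1.46 in each, and in Tgnup133 9 were higher and 19 lower, with a median of 0.02. Between MZnup133 and Tgnup133, 80 of the 169 were lower and 8 higher in MZnup133 (limma adjusted p below 0.05), with a median of -1.34, beside -3.86 for the 48 genes. Below 10% of the matched wildtype level stood 34 of the 48 genes and 28 of 167 earlier genes in MZnup133, and 21 of the 48 and 21 of the 167 in Melys. The difference between these sets was not tested, since both were chosen on wildtype values, and not in the same way. Only the 48 genes had to reach 5 FPKM in wildtype at 4.5 hpf, the stage compared, so the choice did not bear on both sets alike.

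**Figure D4:**
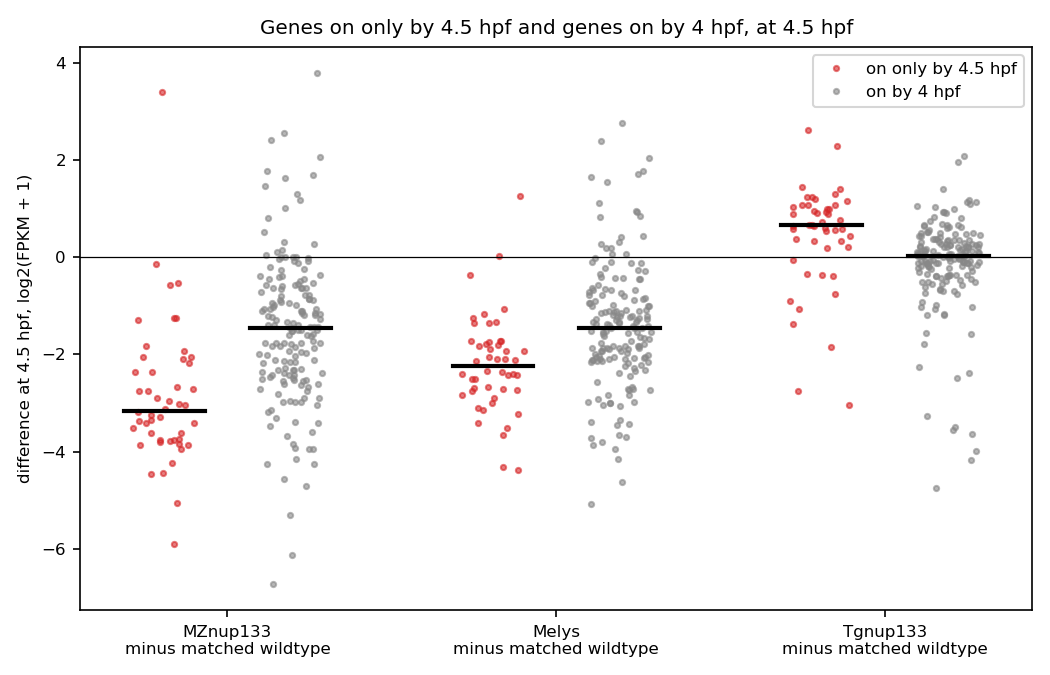
Difference from the matched wildtype library at 4.5 hpf in log2(FPKM + 1) for the 48 genes on only by 4.5 hpf (red) and the 169 genes on by 4 hpf (grey), with 1 point per gene and black bars at the medians. The red medians are -3.16 in MZnup133, -2.24 in Melys and 0.65 in Tgnup133, beside grey medians of -1.46, -1.46 and 0.02. Only the red genes were chosen on wildtype levels at 4.5 hpf.

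At 4 hpf the matched comparison gave smaller differences, on levels that the rule held below 2 FPKM in wildtype. In MZnup133 16 of the 48 genes were lower by at least 1 (10.7% of all genes tested), and in Melys 11 were (8.9%). In Tgnup133 17 were higher (5.36%), with a median difference of 0.77. The genes furthest ahead in Tgnup133 at 4 hpf included CU929115.1 with 51.3 FPKM, against 0 FPKM in both wildtype libraries, and si:ch211-133n4.4 with 8.46 FPKM, against 1.60 and 1.61 FPKM. Of the 48 genes, 16 met all 3 thresholds of the rule within Tgnup133 alone, 2 within MZnup133 and 1 within Melys. These counts, too, have no share over all genes beside them.

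The step from 4 to 4.5 hpf was then read within each line. In MZnup133 24 of the 48 genes were higher at 4.5 than at 4 hpf and 4 were lower, and 15 were at 0 at every stage. In Melys 39 were higher and 5 lower, and 4 were at 0 throughout. In Tgnup133 44 were higher and 3 lower, and 1 was at 0 throughout. Of the 13493 genes tested, 4936 were higher and 8357 lower in Tgnup133. No such share over all genes is given here for MZnup133 and Melys. At 4.5 hpf 37 of the genes in MZnup133 and 27 in Melys were at or below the higher of the wildtype values of 4 hpf, against 2 in Tgnup133. The rule held those wildtype values below 2 FPKM, and no share over all genes is given for this count, so it is a description only. Over the 9 libraries other than wildtype, 47 of the 48 genes had a positive change with a median of 1.21 in log2(FPKM + 1). Of the 13493 genes tested, 5535 had a positive change, with a median of -0.09. Of the 48 genes, 0 passed limma's adjusted threshold, where 0% of all genes tested did. At an unadjusted p below 0.05, 7 genes were higher and 0 lower, where 3.91% and 7.86% of all genes tested were, and the lowest limma adjusted p was 0.42. Within Tgnup133 the median change was 2.48, with 0 genes past the adjusted threshold (0% of all genes tested; lowest limma adjusted p = 0.0865). At an unadjusted p below 0.05, 39 were higher and 1 lower, where 6.56% and 17% of all genes were. The change in MZnup133 minus that in Tgnup133 had a median of -2.30, with 0 genes past the adjusted threshold (0% of all genes tested). At an unadjusted p below 0.05, 29 were lower and 2 higher, where 3.4% and 8.3% of all genes were. The spread behind the counts within Tgnup133 and for its difference from MZnup133 is again that of the wildtype pairs. No wildtype library enters the fit of the 9 libraries. There, differences between the lines in their change enter the spread, which widens it where the lines differ.

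Other genes of the same tissues, from lists of known markers, were compared in the same contrast of MZnup133 with Tgnup133 at 4.5 hpf. Of 5 further yolk syncytial genes tested, 5 were lower in MZnup133 and 0 higher. The homeobox gene mxtx1 had 1.02 FPKM in MZnup133, 14.9 FPKM in Melys and 80.7 FPKM in Tgnup133, against 52.3 and 56.9 FPKM in wildtype. Of 6 further endoderm genes, 4 were lower and 1 higher, the last being foxa. It had 258 FPKM in MZnup133, 2.55 FPKM in Melys and 32.4 FPKM in Tgnup133, against 79.1 and 23.0 FPKM in wildtype, and was near these levels in MZnup133 and Tgnup133 at 3 hpf already, with 250 and 34.6 FPKM. The endoderm forkhead gene foxa3 had 6.62 FPKM in MZnup133, 24.8 FPKM in Melys and 94.2 FPKM in Tgnup133, against 59.1 and 41.3 FPKM in wildtype. Of 26 further enveloping layer and epidermal genes, 14 were lower and 3 higher, the last being grhl3, klf17 and dspb. For grhl3 and dspb the Tgnup133 value was far below wildtype. The gene dspb had 7.32 FPKM in MZnup133, 3.65 FPKM in Melys and 0.467 FPKM in Tgnup133, against 6.36 and 4.22 FPKM in wildtype. The gene grhl3 had 143 FPKM in MZnup133, 21.3 FPKM in Melys and 0.425 FPKM in Tgnup133, against 21.4 and 14.2 FPKM in wildtype. The transcription factor gene klf17 had 162 FPKM in MZnup133, 52.0 FPKM in Melys and 76.3 FPKM in Tgnup133, against 89.0 and 89.8 FPKM in wildtype. The transcription factor gene grhl1 had 4.1 FPKM in MZnup133, 0.969 FPKM in Melys and 24.5 FPKM in Tgnup133, against 23.8 and 18.5 FPKM in wildtype, so regulators of the layer stood on both sides of the wildtype level in MZnup133.

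Lists of other tissues and functions were read in the same contrast, without the genes of the set and over listed genes that reached the minimum level only. Median differences were -2.28 for mesoderm, -1.13 for dorsal organizer, -1.20 for neuroectoderm, -1.13 for signalling and 0.27 for germ cell genes. They were nearer to 0 or positive for stress (-0.40), adhesion and cytoskeleton (-0.36), interferon (-0.33), p53 and arrest (0.12), Notch and her (0.43) and replication and histone genes (0.43). The median over all genes tested was 0.37 on the deposited scale and -0.02 under median-ratio scaling. The sign of list medians near 0 may therefore depend on the scaling. In MZnup133 7 of 13 mesoderm genes were lower and 0 higher, 8 of 17 dorsal organizer genes were lower and 0 higher, 6 of 14 neuroectoderm genes were lower and 2 higher, and 16 of 37 further signalling genes were lower and 0 higher. Of 11 germ cell genes, 0 were lower and 4 higher. These counts come from the same fit, in which 0 genes were lower without either wildtype library of 4 hpf. The background shares are the 7.97% lower and 17.7% higher given above, and the split over all genes turned to 1324 higher and 2103 lower under median-ratio scaling, from 2393 and 1075 on the deposited scale.

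Markers of the layers were summed over each list at 4.5 hpf without the genes of the set. Each full sum was lower in MZnup133 and Melys than in wildtype, and higher in Tgnup133. For the enveloping layer and endoderm the full sum was higher in MZnup133 than in Melys, unlike the median level of the set. The 5 yolk syncytial markers summed to 89.1 FPKM in MZnup133, 363 FPKM in Melys and 763 FPKM in Tgnup133, against 664 and 620 FPKM in wildtype, and of them apoa1b was at 0 in MZnup133, Melys and both wildtype libraries. Without apoeb, the most abundant, the other 4 summed to 21.0 FPKM in MZnup133, 76.1 FPKM in Melys and 131 FPKM in Tgnup133, against 115 and 110 FPKM in wildtype. Of these, apobb.1 was also at 0 in Melys and both wildtype libraries. The marker mxtx2 had 19.9 FPKM in MZnup133, 61.2 FPKM in Melys and 49.7 FPKM in Tgnup133, against 62.4 and 52.8 FPKM in wildtype. It was thus not lower in Melys than in elys-set wildtype, and not higher in Tgnup133 than in wildtype. The 9 enveloping layer markers summed to 332 FPKM in MZnup133, 136 FPKM in Melys and 551 FPKM in Tgnup133, against 454 and 386 FPKM in wildtype, with krt92, cyt1, cyt1l and evpla at 0 in MZnup133 and cyt1 at 0 in Melys. Of these sums klf17 and grhl3 made up most in MZnup133, with 162 and 143 FPKM. Both went the other way there, against 89.0 and 21.4 FPKM in nup133-set wildtype. Without klf17 and grhl3, left out after seeing the data, the other 7 markers summed to 27.4 FPKM in MZnup133, 62.3 FPKM in Melys and 474 FPKM in Tgnup133, against 343 and 282 FPKM in wildtype. The 3 endoderm markers summed to 62.8 FPKM in MZnup133, 51.8 FPKM in Melys and 183 FPKM in Tgnup133, against 166 and 143 FPKM in wildtype, with foxa2 at 0 in MZnup133. Nearly all of this was cxcr4a, and the other 2 summed to 0.318 FPKM in MZnup133, 0.421 FPKM in Melys and 7.03 FPKM in Tgnup133, against 2.94 and 2.66 FPKM in wildtype. The part of these layers' cell numbers in the results was not tested. Blood and adult tissue markers, 8 of which were in the table, summed to 0 FPKM in MZnup133, 0.374 FPKM in Melys and 3.63 FPKM in Tgnup133, against 4.96 and 2.81 FPKM in wildtype, and reached at most 10.2 FPKM in any library, in elys-set wildtype at 4 hpf.

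The thresholds of the rule cut through a continuum. Just inside them, sostdc1a had 0.984 FPKM at 3 hpf in its higher wildtype library, si:ch211-120c15.3 had 1.99 FPKM at 4 hpf, and vsir had 5.10 FPKM at 4.5 hpf in its lower one. Just outside, si:ch211-162i8.2 had 1.06 FPKM at 3 hpf, il21r.1 had 2.04 FPKM at 4 hpf and the globin gene hbaa2 had 4.94 FPKM at 4.5 hpf. With thresholds of 0.5, 1 and 10 FPKM, 4 genes met the rule: gata6, capn9, CU929115.1 and si:dkeyp-100a1.6. The 39 genes of the set that could be placed on the RefSeq gene order of GRCz12tu lay on 19 chromosomes, with at most 5 on any of them.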

How the data were processed

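The deposited table gives FPKM values per gene and library, computed by the authors; the build was GRCz11 and the tools were Cufflinks 2.2.1, STAR 2.5.3a and Trim Galore per the submitters' processing notes, with options and annotation not given in the sources used here. Of 23800 lines, 74 repeats were dropped, leaving 23726 genes, and the 13493 whose mean over 15 libraries reached 1 FPKM were tested; all 48 genes of the set were among them. Wildtype columns were given to a control set by the leading number they share with the mutant columns. An FPKM of 0 may be an absent transcript or a failed estimate, and reads of near-identical genes may be split. FPKM sums were 508714.6 to 575118.3 per library, and absolute read depth is unknown. Relative depth is the mode of the ratios between 2 libraries of values below 1 FPKM.

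Tests used limma 3.58.1 in R 4.3.3 on log2(FPKM + 1), with a variance trend, two-sided p-values and Benjamini-Hochberg adjustment over those 13493 genes (threshold 0.05), so fold changes of low genes are understated. The contrast of MZnup133 with Tgnup133, and the changes between stages within a line, came from 1 fit of the 15 libraries with a control set term and 12 means, 1 per line and stage (2 residual and 2.36 prior degrees of freedom). The change from 4 to 4.5 hpf over the 9 libraries other than wildtype had additive terms for line and stage. The marker sums without apoeb, without klf17 and grhl3 and without cxcr4a were also added after seeing the data. At 4.5 hpf klf17 and grhl3 were the most abundant further markers of their list in MZnup133. They were not so in nup133-set wildtype, where krt18a.1, which was kept, had 197 FPKM. The script was tested on simulated data. Comparisons that involve wildtype at the stages of the rule have no test. Alternatives changed the pseudocount, the minimum level, the scaling, the trend, the set term, the libraries and the thresholds. The changes within Tgnup133 and against MZnup133 were added after seeing the data.

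The genes, the marker lists and the tests were chosen with earlier results of these data known. The 5 kinds of role were assigned by hand after the values were seen. Genes named were those in the marker lists, the 15 most abundant in wildtype at 4.5 hpf, the 10 most negative and 5 most positive past the threshold, the 5 highest outside wildtype at 3 or 4 hpf, up to 3 at each threshold, nup133 and ahctf1; the other genes of the set are named to account for all 48.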

Additional observations from a re-analysis of the deposited data

How the results depend on the processing

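The count of genes lower in MZnup133 than in Tgnup133 (39 of 48) was 30 with a pseudocount of 0.1, 40 with median-ratio scaling and 39 with equal FPKM sums, no trend or no set term. It was 25 with no minimum level, where more genes enter the adjustment, and 4 of 4 with the stricter thresholds. In the additive fit of 9 libraries, which compares the lines over all 3 stages together, it was 3. There 758 of the 13493 genes tested were lower. Leaving out 1 wildtype library at a time gave 0 to 36, with 0 for either library of 4 hpf, 31 for either of 3 hpf and 36 for either of 4.5 hpf; the cause was not tested. The split over all genes was 2393 higher and 1075 lower, 1324 and 2103 with median-ratio scaling, and 2923 and 933 with equal sums, with all-gene medians of 0.37, -0.02 and 0.48. The number lower over all genes was 940 with a pseudocount of 0.1, 805 with no trend and 760 with no set term. It was 523 with no minimum level, where more genes entered. It was also below 1075 when any 1 wildtype library was left out. The count of the set over the 9 libraries for the change from 4 to 4.5 hpf was 0 under every alternative run. With no minimum level the added tests gave 8 genes for the change within Tgnup133 and 5 for its difference from MZnup133. No count over all genes is given beside these. Medians against matched wildtype at 4.5 hpf were, with a pseudocount of 0.1, -5.34 in MZnup133 and -2.85 in Melys. With genes chosen in the other set they were -2.09 in MZnup133, -1.37 in Melys and 0.38 in Tgnup133, and against the wildtype library of the other set -2.71, -2.59 and 0.93. The rule gave 4 genes with the stricter thresholds, 159 in the nup133 set alone and 121 in the elys set alone. No gene past the threshold changed sign. The control sets named in the labels entered as the set term. MZnup133 and Tgnup133 share a set, so this term bears on their contrast only through the spread. No paired analysis was possible, because each line other than wildtype had 1 library per stage.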
